A study of Mus musculus with 7 samples.

Results

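The MHC class II presentation genes were described in leukocytes of the mouse heart after myocardial infarction. The members were chosen by symbol: H2-Aa, H2-Ab1, H2-Eb1, H2-DMa, H2-DMb1, H2-DMb2, H2-Oa, H2-Ob, Cd74 and Ciita. They are 10 of the 27514 genes that both annotations of the files share, and all 10 had at least 1 unique molecular identifier (UMI, a count of 1 captured mRNA molecule) in each of the 7 single-cell matrices. The animals were C57BL6/J mice, labelled male except for the blood and heart pool, which carries no label of sex, and infarction was made by tying off the left descending coronary artery for good. A set of 5 libraries held CD45+ leukocytes from hearts at steady state and on days 1, 3, 5 and 7 after infarction, each pooled from 5 mice, or 3 mice on day 7. Cells labelled by an antibody to CD45.2 given into the vein were left out of that sort, and neutrophils were reduced in number. A CD11b+ heart pool held 3 barcoded antibodies (hashtags) that mark day 1 (5 mice), day 3 (5 mice) and day 5 (3 mice). The last matrix was a CD11b+ pool of blood and heart from mice of 8 to 10 weeks, with 3 control mice, 3 sham-operated mice each for days 1 and 3, and 5 infarcted mice each for days 1 and 3. It carried 7 hashtags, and because no label pairs them with these groups, their values are given 1 by 1. That sort also left out B220+, NK1.1+ and Ter119+ cells, so most B cells were absent by design, and it set neutrophils and other CD11b+ cells to about equal parts. The label for condition reads myocardial infarction for all libraries, the one from steady state included.

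MHC class II molecules show peptides from taken-up proteins to CD4+ T cells. The H2-Aa and H2-Ab1 chains form I-A, and H2-Eb1 is the beta chain of I-E, whose alpha chain this strain lacks, so that I-A is its only class II molecule at the cell surface. Cd74, the invariant chain, fills the groove during assembly, the H2-DM proteins exchange its remnant for peptide, the H2-O proteins restrain H2-DM, and Ciita is the coactivator that switches the whole group on. In the heart, resident macrophages and dendritic cells are the cells best known for class II.

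Ciita lies at chr16:10480059-10528418 (plus strand; GRCm38, GENCODE M21), and 8 members lie in 1 stretch of chromosome 17. From its left end these are H2-Oa (chr17:34092340-34095234), H2-DMa (chr17:34119541-34139101), H2-DMb2 (chr17:34143307-34151555), H2-DMb1 (chr17:34153072-34160230), H2-Ob (chr17:34238903-34254414), H2-Ab1 (chr17:34257689-34269419), H2-Aa (chr17:34282744-34287823) and H2-Eb1 (chr17:34305867-34316674). All are on the plus strand except H2-Aa. H2-DMb1 and H2-DMb2 are near-identical neighbours, so reads could be split between them and their separate values are uncertain. H2-DMa overlaps Brd2 and Ciita overlaps Dexi on the opposite strand, and H2-Eb1 and H2-Oa each overlap an antisense gene. Of the members, 7 had an entry among the RefSeq promoters (GRCm38.p6), and 6 of these held TGATTGG, the Y box core of class II promoters that NF-Y is known to bind, on the strand of the gene in the 250 bases before the start. In 5 of them a GNAAC, as found in the X box that RFX is known to bind, began 25 to 45 bases before it. The letters were chosen after looking at these sequences. Among 32851 promoter windows of the same length, 7.23% held TGATTGG on either strand and 3.64% on the strand of the gene, and 0.487% and 0.228% held the pair. The first 3 stretches below are shown because they hold the pair, and that of H2-DMb2 because it holds the Y box alone. Capitals mark GNAAC and TGATTGG, the strand is that of the gene, and all lie outside annotated exons, the H2-DMb2 stretch inside the longer gene model of that gene.
H2-Aa, chr17:34287859-34287916, minus strand: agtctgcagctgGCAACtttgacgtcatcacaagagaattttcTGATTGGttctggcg
H2-Eb1, chr17:34305764-34305820, plus strand: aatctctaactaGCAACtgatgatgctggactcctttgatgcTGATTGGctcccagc
H2-Ob, chr17:34238806-34238860, plus strand: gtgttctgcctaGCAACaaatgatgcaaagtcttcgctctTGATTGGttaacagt
H2-DMb2, chr17:34145105-34145171, plus strand: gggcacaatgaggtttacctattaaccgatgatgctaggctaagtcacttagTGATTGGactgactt
A match of letters is a description and does not show binding.

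After filtering, 19032 cells were used, 639 to 1795 in each CD45+ library, 4282 in the heart pool and 9999 in the blood and heart pool, with medians of 3595 to 9493, 18083 and 4282 UMIs per cell. Cells were clustered without the 10 members, and clusters were named from other marker genes. These names were rebuilt here, so differences from the study may come from them. Levels below are in CPM, the UMIs of a gene per 1000000 UMIs of all cells of a class in 1 library or hashtag. There was 1 library for each time in each experiment, so intervals are exact 95% Poisson intervals and cover counting error only. The sum of H2-Aa, H2-Ab1, H2-Eb1 and Cd74, called the core here, was used as the summary level. Across the 13 class sums of the CD45+ libraries with at least 30 cells, these 4 genes had correlations of 0.997 to 0.999 with their own mean on the log2(CPM + 1) scale. Ciita stood at 0.93, H2-DMa at 0.92 and H2-DMb1 at 0.89 on that measure. H2-Oa, H2-DMb2 and H2-Ob had 0.81, 0.80 and 0.77. The sums share libraries, so these are descriptions.

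Dendritic cells had the highest core level of any class in both heart experiments, followed by macrophages of the uninjured heart and B cells. The leading genes of their clusters included Cd209a, Ccl22 and Klrd1, or Fscn1, Ccl22 and Ccr7 in a smaller cluster of the CD45+ libraries. In the CD45+ libraries dendritic cells stood at 90218 CPM at steady state (21 cells), 70184 on day 1 (25 cells), 97961 on day 3 (23 cells), 112386 on day 5 (35 cells) and 78489 on day 7 (54 cells). Those of the heart pool stood at 42900 CPM on day 1 (13 cells), 38030 on day 3 (68 cells) and 38852 on day 5 (51 cells). In these 13 cells of day 1 the B cell markers summed to 1077 CPM (16 of 17 with a UMI), against 76.1 and 67.2 CPM on days 3 and 5. The part of B cells or their RNA in that day 1 level was not tested. Every dendritic value of an experiment was above every monocyte/macrophage value of that experiment. B cells, abundant only on day 7 (966 cells), had 47935 CPM (interval 47690 to 48181). Neutrophils, which are not known for class II, had 494, 902 and 1321 CPM on days 1, 3 and 5 of the CD45+ libraries and 277, 387 and 352 CPM in the heart pool. On day 7, T cells (95 cells) had 4942 CPM and natural killer cells (41 cells) had 4644 CPM. Free RNA can give such a level to cells that do not make the genes, so these classes serve as the background of each library. By that measure the background was highest at steady state (T cells 6479 CPM in 14 cells) and next on day 7.

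**Figure D1:**
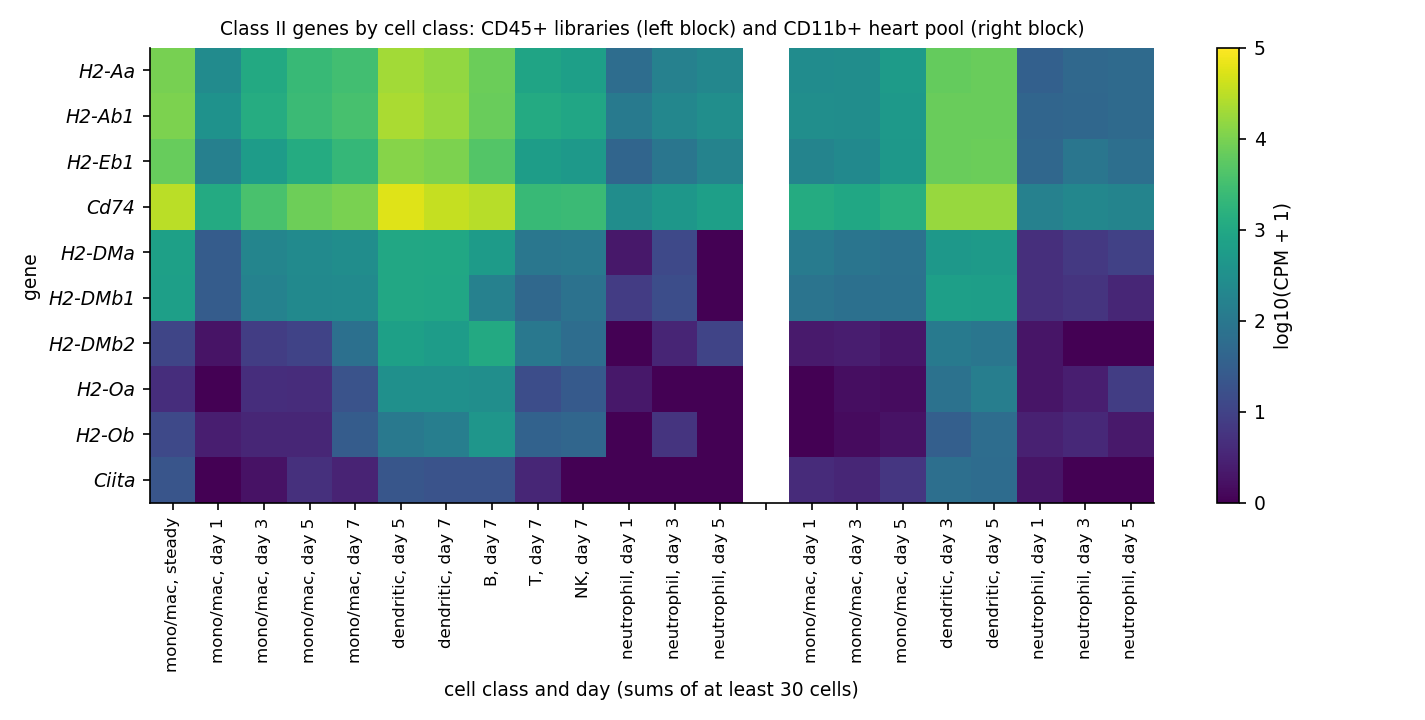
Colour gives log10(CPM + 1) of each of the 10 genes (vertical axis) in each class and day with at least 30 cells (horizontal axis), with the CD45+ libraries on the left and the CD11b+ heart pool on the right. The upper 4 genes are brightest in dendritic cells, B cells and steady-state monocytes/macrophages, while H2-DMb2, H2-Oa and H2-Ob are brightest in dendritic and B cells.

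The accessory genes split the same classes differently. H2-DMb1, a beta chain of H2-DM, was at 1420, 925, 1337, 1013 and 901 CPM in dendritic cells from steady state to day 7, but at 160 CPM in B cells. H2-DMb2, its near-identical neighbour, was at 1088 CPM in B cells and at 202, 530, 428, 704 and 586 CPM in those dendritic cells. Per 100 UMIs of H2-DMb1 there were thus 680 of H2-DMb2 in B cells, 69.5 and 65.0 in dendritic cells of days 5 and 7, and 1.58 in steady-state monocytes/macrophages. Dendritic cells of the heart pool had 16.7 and 13.9 on days 3 and 5. H2-DMb2 exceeded H2-DMb1 in B cells and in the T cells of the same library, which had 210, with the caveat that reads of the pair may be split. The T cell ratio rests on 42 and 20 UMIs. Those 95 T cells also held 100 UMIs of the B cell genes Cd79a, Cd79b and Ms4a1, and the part of B cell RNA was not tested. The H2-O genes were highest in the same classes as H2-DMb2. H2-Oa reached 297 CPM in B cells and 324 CPM in dendritic cells on day 7, and H2-Ob reached 424 and 137 CPM. In steady-state monocytes/macrophages, with a core level above that of day 7 B cells, H2-Oa was at 3.61 CPM and H2-Ob at 11.8 CPM.

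In monocytes/macrophages, taken as 1 class, the core was far lower on day 1 than at steady state and higher again in each later CD45+ library, yet below the steady-state level on day 7. The values were 57508 CPM at steady state (527 cells, interval 57269 to 57747), 1913 on day 1 (251 cells, 1858 to 1969), 6678 on day 3 (650 cells, 6619 to 6736), 13979 on day 5 (787 cells, 13896 to 14064) and 18399 on day 7 (599 cells, 18299 to 18500). The intervals do not overlap, but with 1 library for each time the spread between hearts is unknown and no test was made. Against steady state the log2 ratios were -4.91, -3.11, -2.04 and -1.64, that is 30.1-fold, 8.61-fold, 4.11-fold and 3.13-fold lower. At a clustering resolution of 2, where the steady-state cells highest in the core fell in a cluster without a name, the log2 ratios were -4.29, -2.48, -1.43 and -1.05. Beside these levels stand neutrophils at 494, 902 and 1321 CPM on days 1, 3 and 5 and T cells at 4942 CPM on day 7.

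**Figure D2:**
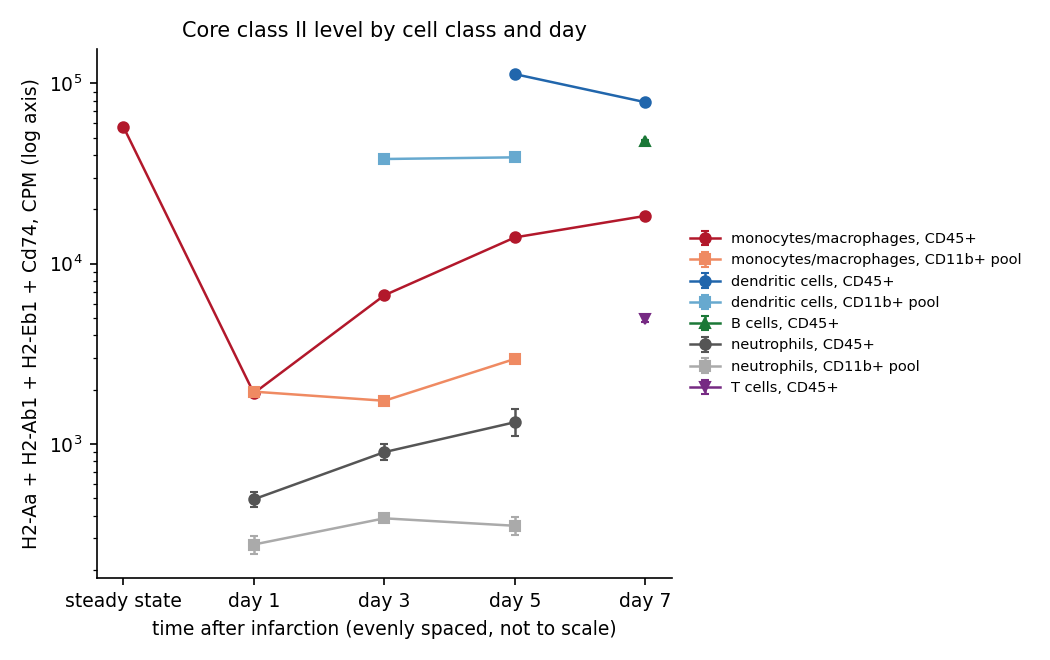
Points give the core level (CPM, log axis) of each class by time in the CD45+ libraries and in the CD11b+ heart pool, with exact 95% Poisson intervals as bars and only sums of at least 30 cells; times are evenly spaced. Monocytes/macrophages of the CD45+ libraries run from 57508 CPM at steady state through 1913 on day 1 to 18399 on day 7, while those of the heart pool stay between 1737 and 2964.

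Each chain gene followed that course. Cd74, on chromosome 18, was at 31038, 1157, 3750, 7966 and 9711 CPM from steady state to day 7. H2-Aa was at 9344, 254, 1073, 2288 and 3020 CPM. H2-Ab1 was at 10132, 350, 1269, 2521 and 3496 CPM. In all of these the day 1 library was lowest and steady state highest. H2-Eb1, the beta chain without a partner in this strain, was at 6994, 152, 585, 1204 and 2172 CPM and had the largest ratio between steady state and day 1 of the 6 members with at least 10 UMIs in each library, 45.9-fold against 23.5-fold to 36.8-fold for the others. Per 100 UMIs of H2-Ab1, H2-Eb1 had 69.0 at steady state, 43.6, 46.1 and 47.8 on days 1, 3 and 5 and 62.1 on day 7. H2-DMa was at 685, 27.8, 187, 244 and 281 CPM and H2-DMb1 at 654, 27.8, 166, 234 and 250 CPM. The H2-DM genes were thus lowest on day 1 as well, but the ratio of day 7 to steady state was closer to 1 for them, 2.44-fold and 2.62-fold lower, than for the chain genes, 2.90-fold to 3.22-fold lower.

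Ciita, the coactivator, was rarely captured. It had 78 UMIs in steady-state monocytes/macrophages (20.1 CPM, interval 15.9 to 25.1), 0 on day 1, 6 on day 3 (0.792 CPM), 30 on day 5 (3.95 CPM) and 15 on day 7 (2.14 CPM). The 0 of day 1 was set to a floor of 3 UMIs, or 1.26 CPM. Against that floor steady state was 12.6-fold higher at the lower end of its interval and 15.9-fold at its point value. The floor lies below the upper end of the exact interval for 0 UMIs, so these ratios are not lower bounds. Unlike the core, Ciita was no higher on day 7 (interval 1.2 to 3.53 CPM) than on day 5 (2.66 to 5.64 CPM). At steady state 27 natural killer cells had 2 Ciita UMIs (17.1 CPM, interval 2.07 to 61.7), so a difference from the background of that library was not detectable at this depth. With all UMIs, 13.3% of steady-state cells had a Ciita UMI, and after thinning each cell to 2000 UMIs (29 shallower cells left out) 4.62% did, against 0% to 0.889% on the later days. Neutrophils, with median depths of 2543 to 3414 UMIs against 8484 to 10866 in monocytes/macrophages, had no Ciita UMI on days 1, 3 and 5.

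H2-DMb2, H2-Oa and H2-Ob behaved differently on day 7. In monocytes/macrophages H2-DMb2 was at 10.3, 0.842, 7.26 and 9.08 CPM at steady state and on days 1, 3 and 5, but at 70.0 CPM on day 7. H2-Oa was at 3.61, 0, 3.56 and 3.29 CPM, and at 18.1 CPM on day 7. H2-Ob was at 11.8, 1.68, 2.51 and 2.50 CPM, and at 28.1 CPM on day 7. Day 7 was the highest library for all 3 genes, and it is the library in which B cells made up 53.8% of cells. In it the B cell markers (14 of 14 with a UMI) summed to 422 CPM in monocytes/macrophages, 593 CPM in T cells and 8279 CPM in B cells, against 5.87 to 73.1 CPM in monocytes/macrophages of the other CD45+ libraries. Per 100 UMIs of Cd79a, Cd79b and Ms4a1 together, H2-DMb2 had 29.0 UMIs in B cells, 42.0 in T cells and 35.7 in monocytes/macrophages of day 7. H2-Oa had 7.93, 6.00 and 9.23, and H2-Ob had 11.3, 15 and 14.3. In the same classes the core had 1278, 2043 and 9374. Natural killer cells and neutrophils of day 7, with 32 and 26 UMIs of the B cell genes, had 37.5 and 19.2 for H2-DMb2, 15.6 and 19.2 for H2-Oa and 28.1 and 19.2 for H2-Ob, from 5 to 12 UMIs of each member. The part of B cell RNA in the day 7 levels was not tested. In dendritic cells of that library the ratios were higher for all of them, 292 for H2-DMb2, 161 for H2-Oa and 68.4 for H2-Ob.

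The classes that held most class II mRNA differed between times. At steady state monocytes/macrophages held 87.2% of all core UMIs and made up 82.5% of cells, and dendritic cells, 3.29% of cells, held 10.3%. On day 1 dendritic cells were 4.74% of cells and held 75.8% of core UMIs, and monocytes/macrophages, 47.6% of cells, held 17.8%. Monocytes/macrophages held 65.2% on day 3 and 72.7% on day 5. On day 7 B cells held 45.3%, monocytes/macrophages 39.8% and dendritic cells 13.8%. Dendritic cells of the heart pool, 2.63%, 3.15% and 3.13% of cells, held 50.6%, 54.3% and 29.3% of core UMIs on days 1, 3 and 5. Those of day 1 were 13 cells that also carried B cell markers. The sorts and the neutrophil reduction set the shares of cells.

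Within monocytes/macrophages the core was unevenly spread over cells. The median cell had 554 core UMIs per 10000 UMIs at steady state, with quartiles of 112 and 965. On day 1 the median was 4.49 and the 90th percentile 41.4. On day 5 the median was 18.1 and the 90th percentile 516, so a small share of cells approached the steady-state median. On day 7 the lower quartile, 32.4, was close to the median of T cells in that library, 31.6, while the upper quartile was 250. The median neutrophil had 3.48, 7.48 and 11.1 on days 1, 3 and 5, against 4.49, 8.12 and 18.1 in monocytes/macrophages. The median cell named so on days 1 and 3 was thus near the background, and the class level rested on fewer high cells. With cells classed by their own markers, the CD45+ class held 105 cells on day 1 instead of 251. It held 626 instead of 650 on day 3 and 745 instead of 787 on day 5. The day 1 median may thus not be that of a typical monocyte or macrophage. After thinning to 2000 UMIs, Cd74 was found in 100% of steady-state monocytes/macrophages and in 49.6%, 65.5%, 78.3% and 97.0% on days 1, 3, 5 and 7, before thinning in 100%, 82.9%, 93.5%, 97.8% and 100%. Neutrophils had 30.4%, 54.1% and 75% on days 1, 3 and 5 and T cells 90.5% on day 7 after thinning. With such a background the shares of days 5 and 7 cannot be read as cells that express Cd74. For the heart pool the medians of monocytes/macrophages were 2.84, 1.62 and 1.36 and those of neutrophils 2.10, 2.67 and 2.47, with 90th percentiles of 78.5, 49.2 and 127 against 6.83, 9.59 and 9.49.

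**Figure D3:**
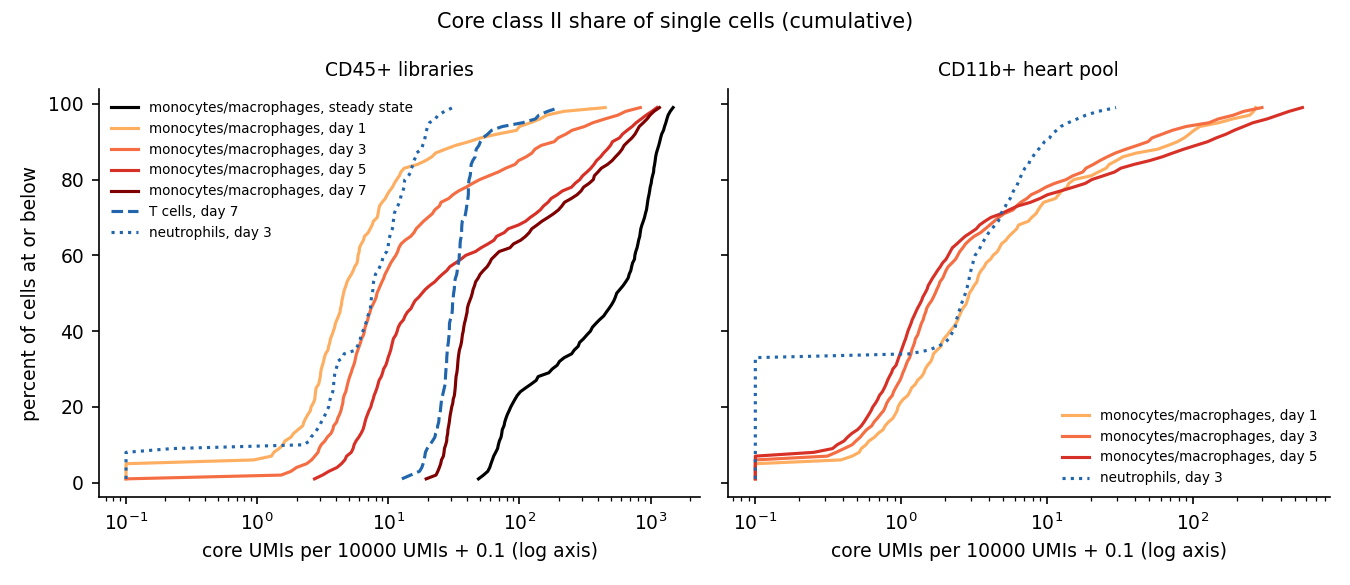
Curves give the percent of cells (vertical axis) with at most a given share of core UMIs per 10000 UMIs, plus 0.1, on a log axis, in the CD45+ libraries (left) and the CD11b+ heart pool (right). On the left plot steady-state cells lie far to the right (median 554), and the lower part of the day 7 curve runs close to that of T cells of day 7. The day 1 curve there lies farthest left at the median, 4.49. In the heart pool day 1 has the highest median of monocytes/macrophages, 2.84.

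Different clusters made up the class at different times. At steady state cluster 1, led by Lyve1, Hspa1a and Retnla, held 75.9% of the class and cluster 0, led by the muscle genes Myl2 and Tpm1, held 19.5%. On day 1 cluster 17 (Saa3, Csf3, Ppbp) held 78.9%, on day 3 cluster 15 (Plac8, Ear2, Gm9733) held 48.2%, and on days 5 and 7 cluster 10 (Gpnmb, Ccl8, Syngr1) held 29.9% and 32.2%. Cluster 10 was low in the core, at 4050 CPM on day 5 and 7230 CPM on day 7, the latter beside a T cell level of 4942. Cluster 4, led by Axl, Cd72 and Cx3cr1, had 46674 CPM on day 5 (90 cells) and 45140 CPM on day 7 (130 cells), the highest of the infarct clusters with at least 30 cells and nearest to cluster 1 of steady state at 55918 CPM. Cluster 1 itself had 16278 CPM in the 63 cells that day 7 gave to it. Cells of 1 cluster also differed with time. Cluster 15 had 8375, 20550 and 20622 CPM on days 3, 5 and 7, and cluster 7 (Spp1, Pdpn, Arg1) had 3139 CPM on day 3 and 13365 on day 5. Cluster 12, led by the interferon-stimulated genes Rsad2 and Ifit1, had 7319, 10273 and 26161 CPM on days 1, 3 and 5. Day 5 was above day 3 in each of these 3 clusters. The dividing cells of cluster 14 (Birc5, Stmn1) showed no such order, with 10931, 9411 and 12957 CPM on days 3, 5 and 7. Day 1 cluster 17 was lowest, at 1360 CPM.

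The neutrophil markers in the day 1 class were high. They summed to 19271 CPM in CD45+ monocytes/macrophages of day 1 (16 of 16 with a UMI) against 160 to 1828 CPM at the other times, and to 235277 CPM in neutrophils of that day. They summed in the heart pool to 2305, 811 and 614 CPM on days 1, 3 and 5, with 14 to 15 of 16 markers above 0. Their part in the low day 1 level was not tested. The level in macrophage clusters alone, a class with 36 cells on day 1, was 6176 CPM on day 1 and 6191 on day 3. The monocyte clusters had 1443 CPM (215 cells) and 7109 CPM (396 cells) on those days. The macrophage clusters were 36 of 251 cells of the class on day 1 and 254 of 650 on day 3, so the mix within the class differed as well.

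The question whether the members changed between days 1, 3 and 5 could be tested, since both heart experiments hold these days. UMIs of monocytes/macrophages were summed for each day and experiment, and edgeR's quasi-likelihood test with the experiment as a block and Benjamini-Hochberg adjustment was fitted on 10672 genes, the 10 members among them. Nothing says that the sums come from more than 1 pool of mice each, so p-values do not measure the spread between mice. The block takes out the difference in level between the 2 experiments. The p-values thus set the shared day change against how far the day changes of the experiments differ, with a spread partly shared over all genes. From day 1 to day 5, H2-Eb1 rose (log2 change 1.87, SE 0.385, adjusted p = 0.0359, n = 2 sums per day). Its CPM on days 1, 3 and 5 were 152, 585 and 1204 in the CD45+ libraries and 180, 233 and 472 in the heart pool, so day 5 was above day 1 in both. It was the 1 member called of 10, where 10.7% of all genes were called, 5% higher and 5.73% lower. H2-Aa had a log2 change of 1.75 (SE 0.499, adjusted p = 0.0753), H2-Ab1 1.43 (SE 0.489, adjusted p = 0.107) and Cd74 1.16 (SE 0.555, adjusted p = 0.203). All 10 members were fitted higher on day 5, with a median of 1.18 against 0.01 over all genes, or 1.30 over the 6 members with at least 10 UMIs in every sum. The other 4 rest on too few UMIs for a fitted change to be read. Within the CD45+ libraries 10 of 10 members were higher on day 5 and within the heart pool 7 of 10. These counts include members with 0 UMIs on day 1, H2-Oa and Ciita in the CD45+ libraries and H2-Oa and H2-Ob in the heart pool. The direction of such members cannot be read. The call for H2-Eb1 was lost without either day 5 sum, when cells were classed by their own markers, with macrophage clusters alone, with dendritic cells added or without the block. A fit without 1 sum leaves that day with 1 sum, so its counts of called members are not read here. Across these fits the day 1 to day 5 change of H2-Eb1 was 1.26 to 2.68 and that of H2-Aa 0.94 to 2.84. For H2-Ab1 it was 0.63 to 2.50 and for Cd74 0.24 to 2.37.

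Between days 1 and 3 the same test called 0 members, where 0.0562% of all genes were called, and 1922 genes had an unadjusted p under 0.05. DESeq2 called 513 genes and 0 members. Between days 3 and 5 it called 0 members, where 0% of all genes were called and 783 had an unadjusted p under 0.05, and DESeq2 called 96 genes and 0 members. Between days 1 and 5, DESeq2 called 1629 of 11245 genes and 3 members. In the fits of days 1 to 3 and days 3 to 5, 9 and 8 of the 10 members were higher on the later day, with medians of 0.68 and 0.65 against 0.01 and -0.00 over all genes. Over the 6 members with at least 10 UMIs in every sum the medians were 0.58 and 0.87. Within the CD45+ libraries 10 and 8 of the 10 were higher, and within the heart pool 3 and 7. The 3 of the heart pool include H2-Oa and H2-Ob, which had 0 UMIs there on day 1. Across the fits without 1 sum the change of H2-Eb1 was 0.25 to 1.68 for days 1 to 3 and 0.64 to 1.41 for days 3 to 5. That of Cd74 was -0.59 to 1.55 and 0.12 to 1.41. Scaling to total UMIs moved the median change of all genes to 0.22 (days 1 to 3) and 0.24 (days 1 to 5), and it moved the split of calls in the latter from 534 higher of 1146 to 690 higher of 1057.

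The experiments differed most in the first step. Within the CD45+ libraries, from day 1 to day 3, H2-Aa differed by a log2 of 1.83, H2-Ab1 by 1.61, H2-Eb1 by 1.69 and Cd74 by 1.45. The heart pool had -0.11, -0.26, 0.19 and -0.54 for the same genes. All 10 members were higher on day 3 in the CD45+ libraries and 3 of 10 in the heart pool. These 3 were H2-Eb1 and, from 0 UMIs on day 1, H2-Oa and H2-Ob. For the step from day 3 to day 5 the experiments were alike for the chain genes, with 1.00, 0.90, 0.95 and 1.00 in the CD45+ libraries and 1.00, 0.83, 1.05 and 0.65 in the heart pool. The H2-DM genes differed in sign from day 1 to day 5, H2-DMa having 2.78 in the CD45+ libraries and -0.78 in the heart pool and H2-DMb1 having 2.72 and -0.34. In CPM, H2-DMa of the heart pool was at 118, 87.8 and 76.7 and H2-DMb1 at 83.3, 69.7 and 73.2 on days 1, 3 and 5. The core of the heart pool, 1951, 1737 and 2964 CPM, was close to that of the CD45+ libraries on day 1 (1913 CPM) and below it on days 3 and 5. The difference between the experiments was not tested, and sort, chemistry and mice all differ between them. H2-DMb2, H2-Oa, H2-Ob and Ciita had under 10 UMIs in at least 1 of the 6 sums, so no fitted change is given for them. Ciita of the heart pool was at 3.20, 2.43 and 5.08 CPM on days 1, 3 and 5. Its day 5 interval (4.42 to 5.82 CPM) lay above that of day 3 (1.95 to 3.00 CPM) and overlapped that of day 1 (1.86 to 5.12 CPM). The other 3 genes were at 0 to 1.53 CPM.

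**Figure D4:**
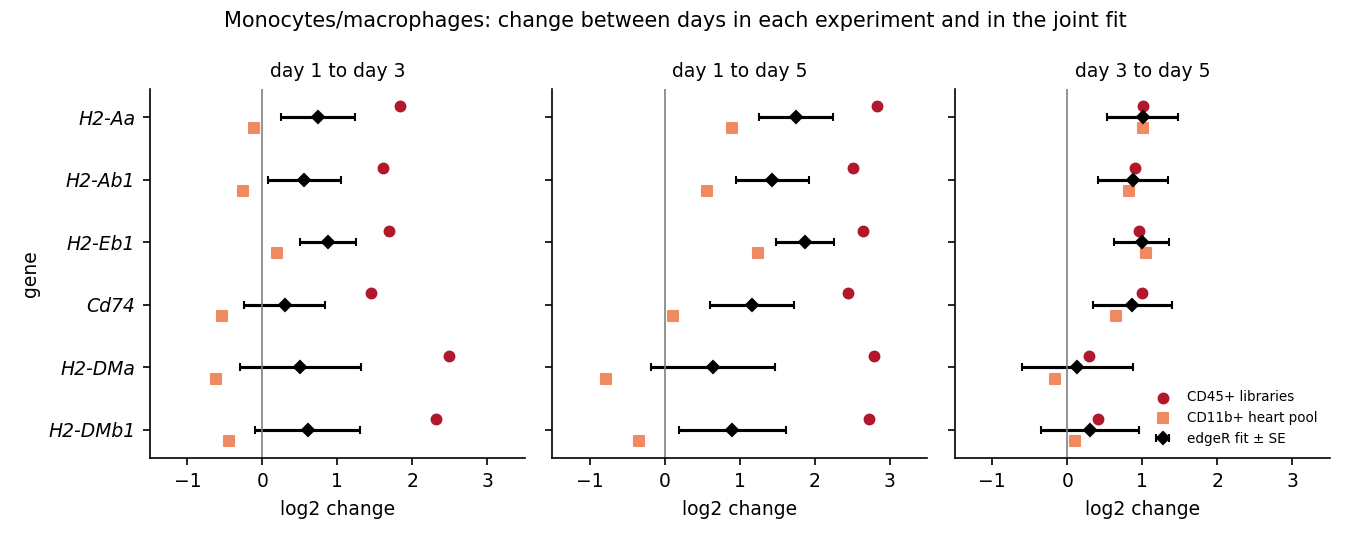
Diamonds give the log2 change of each gene (vertical axis) fitted by edgeR over both experiments with its SE, circles the change within the CD45+ libraries and squares that within the CD11b+ heart pool, for the 6 members with at least 10 UMIs in every sum. From day 1 to day 3 the squares lie near or below 0 and the circles between 1.45 and 2.49, while from day 3 to day 5 both lie close together for the 4 chain genes.

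Other genes of the pathway gave no common direction. The list of class II regulators and pathway genes held 30 genes, of which 28 were tested. Of these, 3 were higher and 3 lower on day 5 than on day 1 at an adjusted p under 0.05 (edgeR), beside 5% and 5.73% of all genes, with a median log2 change of 0.12 against 0.01 and 15 of 28 fitted higher. Lgmn, an endosomal protease that processes the invariant chain and antigen, rose (1.73, SE 0.336, adjusted p = 0.0311), and its CPM on days 1, 3 and 5 were 421, 1974 and 2834 in the CD45+ libraries and 940, 1865 and 2272 in the heart pool. Cd83, which keeps class II and Cd86 at the surface, rose (1.38, SE 0.216, adjusted p = 0.0200). Cd80, a costimulatory ligand, fell by 2.31 on the log2 scale (SE 0.258, adjusted p = 0.00887), from 73.3 through 34.6 to 14.3 CPM in the CD45+ libraries and from 89.3 through 34.5 to 24.3 CPM in the heart pool. Socs1, an inhibitor of interferon signalling, fell by 1.44 (SE 0.227, adjusted p = 0.0206). In all 4 genes the experiments moved the same way. None of the 28 was called for days 1 to 3 or days 3 to 5, with medians of 0.00 and 0.07. Of the 17 class I presentation genes, none was called in any step, and the medians were 0.28, 0.22 and -0.18. They were higher on day 3 than on day 1 in 17 of 17 cases in the CD45+ libraries and in 4 of 17 in the heart pool.

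Markers of dendritic cells were also read in the summed monocytes/macrophages. The defining markers Cd209a, Flt3 and Zbtb46 summed to 17.9 CPM at steady state and to 2.51, 6.18, 3.40 and 11.5 CPM on days 1, 3, 5 and 7, and in the heart pool to 1.88, 1.19 and 1.84 CPM. The whole list of 22 dendritic markers summed to 1412, 428, 562, 441 and 454 CPM in the CD45+ libraries and to 340, 328 and 232 CPM in the heart pool, with 18 to 22 of them above 0. In dendritic cells themselves the list summed to 4794 to 11342 CPM in the CD45+ libraries (6542 at steady state) and to 2547 to 4185 CPM in the heart pool, and the 3 defining markers to 263 to 1536 CPM and 117 to 266 CPM. Macrophage markers summed to 2428, 10910 and 14876 CPM in heart pool dendritic cells of days 1, 3 and 5. Monocytes/macrophages there had 23137, 29777 and 44244 CPM, and neutrophils 6028, 3313 and 2926. The part of macrophages or their RNA in the dendritic class was not tested. Leaving out every monocyte/macrophage with a UMI of Cd209a, Flt3, Zbtb46 or of the B cell genes Cd79a, Cd79b and Ms4a1 left the H2-Eb1 change at 1.77. When dendritic cells were added to the sums, the change of H2-Eb1 was 0.32.

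Surface class II was read with an antibody to I-A/I-E in the heart pool, where dendritic cells stood far above the other classes. Their median was 453 UMIs per cell on day 3 (68 cells, 366 to 571 by order statistics) and 540 on day 5 (51 cells, 395 to 776). Monocytes/macrophages had medians of 72.0 (229 cells, 69 to 77), 93.5 (1096 cells, 91 to 98) and 100.0 (1338 cells, 96 to 104) on days 1, 3 and 5. Neutrophils had 58.0, 57.0 and 59.0, taken here as the background of the stain. Monocytes/macrophages were thus above neutrophils on each day, and their day 3 and day 5 medians were above that of day 1 in this 1 pool, while their core level was 1951, 1737 and 2964 CPM. Antibody and mRNA did not rank the clusters alike. Cluster 11 (Top2a, Pclaf, Ube2c), a group of dividing cells, had the highest antibody median outside dendritic cells, 134 UMIs, at a core of 2644 CPM. Cluster 5 (Pdpn, Ppbp, Pf4) had 110 UMIs at 808 CPM, while cluster 1 (Ccr2, Adora2b, Atp2b4) had 83 UMIs at 7165 CPM, the highest core outside dendritic cells. Depth per cell also differs between clusters and between classes, and its part in the antibody counts was not tested. The neutrophil clusters had medians of 3861 and 3990 mRNA UMIs per cell, and the monocyte/macrophage clusters 7752 to 53652. Over cells, the Spearman correlation of antibody UMIs with the core share was 0.21 in 132 dendritic cells, 0.25 in 2663 monocytes/macrophages and 0.05 in 1354 neutrophils of 1 library. On log values the Pearson correlations were 0.47, 0.49 and 0.11. In the blood and heart pool the Spearman correlation was 0.89 in 208 dendritic cells, 0.24 in 3287 monocytes/macrophages and 0.01 in 6326 neutrophils. The pools thus differed widely for dendritic cells.

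**Figure D5:**
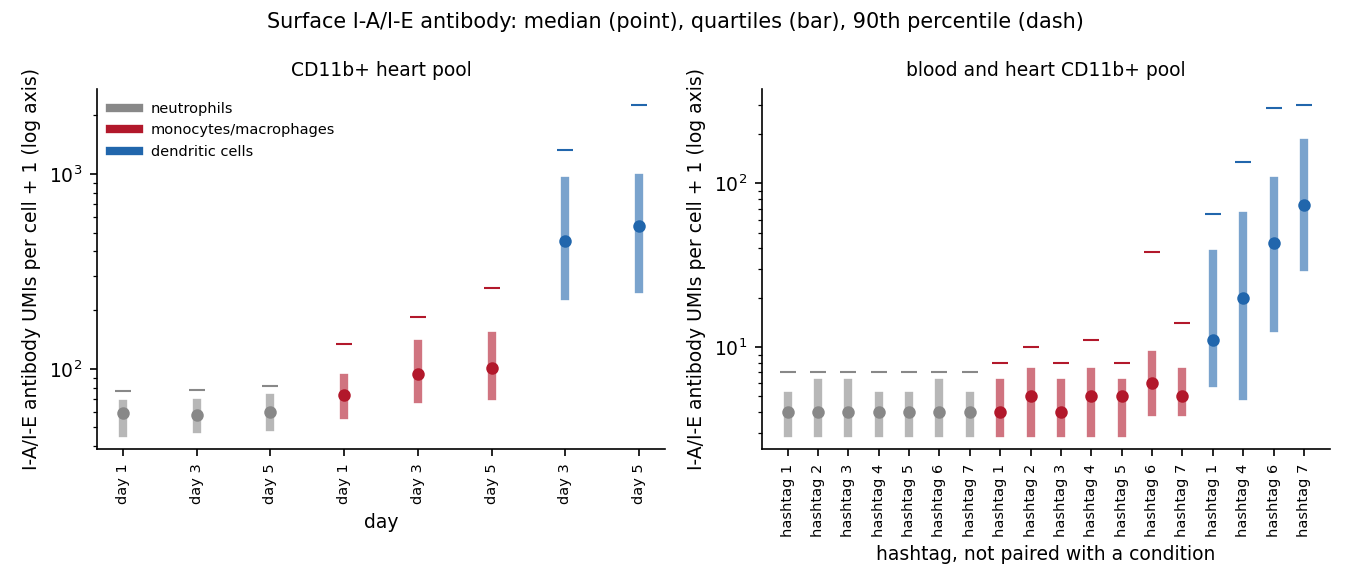
Points give the median I-A/I-E antibody UMIs per cell plus 1 (log axis), bars the quartiles and dashes the 90th percentile, by class and by day in the CD11b+ heart pool (left) or by hashtag in the blood and heart pool (right), for sums of at least 30 cells. Dendritic cells lie above the other classes in both pools, and in the right plot neutrophils and monocytes/macrophages have medians of 3 to 5 UMIs.

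In the blood and heart pool the core of monocytes/macrophages was 1224, 2028, 1231, 2538, 1319, 4222 and 2225 CPM in hashtags 1 to 7. Dendritic cells had 20924, 35140, 23641, 26414, 15907, 31128 and 37326 CPM, from 17 to 42 cells each, so the classes did not overlap. Neutrophils had 67.8 to 160 CPM. The clusters of this class spanned a wider range than the hashtags. Cluster 11, led by Chil3, F13a1 and Fn1, genes of classical monocytes, had 80.4 to 201 CPM, near the neutrophil range. Cluster 10 (Tmem176b, Ifi203, Ifi211) had 1921, 5422, 2265, 8023, 3456, 8485 and 6751 CPM in hashtags 1 to 7. Cluster 12 (Gm26917, Arg1, Ccl2), named macrophages, held at least 30 cells in hashtags 6 and 7 alone, with 4952 CPM (125 cells) and 1647 CPM (171 cells). Ciita was better covered here, with 234 to 396 CPM in dendritic cells, 17.5 to 48.1 CPM in monocytes/macrophages and 0.439 to 1.89 CPM in neutrophils. H2-DMb2 in these dendritic cells was at 9.59 to 75.9 CPM beside 802 to 1140 CPM of H2-DMb1. The antibody median was 10.0, 19.0, 42.0 and 72.5 UMIs in dendritic cells of hashtags 1, 4, 6 and 7, 3 to 5 in monocytes/macrophages and 3 in neutrophils of each hashtag. Hashtag 7 had the highest core and the highest antibody median of the dendritic cells, and hashtag 1 was lowest of these 4 in both.

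Among 4446 other genes with a mean of at least 20 CPM over the 13 class sums, the 10 whose log2(CPM + 1) was most like the core mean had Pearson correlations of 0.90 to 0.94. They were Rraga, Cd83, Bmyc, Stap1, Tob2, Got1, Prcp, Fgd2, Gdi2 and Blnk. Cd83 had 0.93 and was at 3428, 157, 187 and 542 CPM in monocytes/macrophages at steady state and on days 1, 3 and 5. The sums share libraries and free RNA, so the ranking is a description.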

How the data were processed

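The authors deposited UMI counts per gene and cell from 10x Genomics libraries, made with Cell Ranger against mm10, per the submitters' processing notes and the file headers; antibody and hashtag counts come in the same files for the pools. Members and gene lists were chosen with earlier results of these data known. Barcodes under 200 genes or over 10% mitochondrial UMIs were dropped, as were those with several or no hashtags. The mitochondrial limit took 17.4% of barcodes of the heart pool. Scrublet marked 0.248% of 4836 CD45+ barcodes, so doublets of cells from 1 library were in effect not removed. CD45+ libraries shared at most 2 barcodes with each other and the pools 28. Cells were clustered (scanpy 1.11.5, Leiden resolution 1, 2000 variable genes, 30 components) without the 10 members. Classes were named by markers. Sums of at least 30 cells were tested with edgeR 4.0.16 (TMM, filterByExpr, two-sided, threshold 0.05). On simulated counts of the day 1 to day 5 comparison, 100% of 200 changed genes were recovered and 4.76% of calls were false. These genes were well covered and changed alike in both experiments, with 1 spread for all genes and a median fitted log2 change of 2.01 in those raised. The simulation therefore does not tell how often smaller changes, or changes unlike between the experiments, would be missed. DESeq2 1.42.0 was an alternative. All 10 members, whatever their values, and at most the 4 largest called genes per list and comparison are named. Dendritic cells had under 30 cells in 1 or more sums of each comparison and were not tested. CD45+ libraries held 3655070 to 11528452 UMIs in the cells used.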

Additional observations from a re-analysis of the deposited data

How the results depend on the processing

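The labels give no replicate numbers, so the only pairing was by experiment, which was a block in the test. From day 1 to day 5 the 1 member called became 3 with DESeq2 (1629 of 11245 genes called) and 4 without a filter on low counts (1884 of 17804). It became 0 without the experiment block (0 of 10672 genes) and with cells classed by their own markers (946 of 10644). The same held with dendritic cells added (1312 of 10804) or with macrophage clusters alone (423 of 10349). From day 3 to day 5 the 0 became 5 with only these days in the fit, where 1042 of 11666 genes were called. Leaving out 1 sum at a time gave 0 to 7, 0 to 9 and 0 to 5 members for days 1 to 3, 1 to 5 and 3 to 5. Over all genes the 6, 1146 and 0 called genes became 0, 0 and 0 without the block, 630, 1884 and 97 without the filter, 513, 1629 and 96 with DESeq2, and 1 to 2179, 196 to 3164 and 0 to 565 without 1 sum. The cause was not tested. From day 1 to day 3, adding dendritic cells turned H2-Aa (-0.19), H2-Ab1 (-0.19), H2-Eb1 (-0.15), Cd74 (-0.19) and H2-DMb1 (-0.0019), and macrophage clusters alone turned Cd74 (-0.38) and H2-DMa (-0.042). Leaving out 1 sum gave -0.074 to 1.85 for H2-Aa, -0.24 to 1.64 for H2-Ab1, -0.59 to 1.55 for Cd74, -0.69 to 2.63 for H2-DMa and -0.47 to 2.42 for H2-DMb1. From day 1 to day 5 it gave -0.62 to 2.69 for H2-DMa and -0.22 to 2.67 for H2-DMb1, and from day 3 to day 5 -1.02 to 0.87 and -0.63 to 0.96. H2-Eb1 was higher on the later day in each of these, 1.26 to 2.68 from day 1 to day 5. Of 102 alternative values of 6 members, 83, 81 and 86 kept direction and side of the threshold in the 3 comparisons. The core log2 ratio to steady state was -4.27, -3.15, -2.02 and -1.43 with cells classed by their own markers and -4.29, -2.48, -1.43 and -1.05 at resolution 2, where the steady-state cells highest in the core fell in a cluster without a name. At 20% mitochondrial UMIs it was -3.09, -2.02 and -1.62 on days 3, 5 and 7, and with the members in the clustering -3.34 and -1.65 on days 3 and 7. The core of B cells was 45334, 47313 and 45334 CPM with 20% mitochondrial UMIs, own markers and members in the clustering, that of pool dendritic cells 39073 and 39829 with the first and the last. With own markers, neutrophils were at 5794 CPM (CD45+ libraries) and 494 (pool), and pool monocytes/macrophages at 2889. Antibody medians and hashtag values moved by less than their spread. Dendritic comparisons could not be fitted. Depth limits Ciita, H2-DMb2, H2-Oa and H2-Ob.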

Other observations

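Steady-state monocytes/macrophages held a subset with a high and a subset with a low core level. At a Leiden resolution of 2, fine cluster 1 (266 cells, led by Vcam1, Bcl2a1d and Il1b) had a core of 75481 CPM and a median of 838 core UMIs per 10000 in each cell. The background of this library, read above in T cells, was not taken off these values. Fine cluster 2 (140 cells, led by Vsig4, Lyve1 and Fcna) had 22670 CPM and a median of 91.5, at a higher median depth of 8351 UMIs against 7283. Its 10th and 90th percentiles were 59.7 and 650, so its level rested on fewer high cells. Its Lyve1, a hyaluronan receptor of resident macrophages, was at 787 CPM against 75.7, its folate receptor Folr2 at 1838 against 391 and its phosphatidylserine receptor Timd4 at 164 against 31.8 CPM. Ciita was at 10.8 CPM in fine cluster 2 and at 22 CPM in fine cluster 1, and H2-DMb1 was at 298 and 809 CPM. For Ciita a difference of the whole class from the background of this library was not detectable, as given above. Both fine clusters held the macrophage gene C1qa, at 7894 and 6072 CPM, and the dendritic genes Cd209a, Flt3 and Zbtb46 were at 0 to 12.4 CPM in both. A further 97 cells, led by the muscle genes Myl2, Tpm1 and Tnnt2, had 63364 CPM. All are cells of 1 library, and they were compared after the clusters were seen, so these values are descriptions.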
